A study of Mus musculus with 26 samples.

Results

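The 32 genes described here are made by the endoderm of the yolk sac, the liver and the gut of the mouse embryo. They were chosen by name from a fixed list, and all 32 were found among the 54532 genes of each of 2 tables, for 26 whole embryos at E9.5 with 1 library per embryo. By role, 21 encode proteins that yolk sac endoderm and liver secrete into the circulation, 2 encode intracellular proteins of lipid and calcium handling, 4 serve the uptake of macromolecules, and 5 are gut and liver factors. The embryos belong to 4 groups, namely *Traf7* global knockouts (GLOko, n = 6), wild-type embryos (WT, n = 6), endothelial knockouts (ECko, n = 7) and endothelial heterozygotes (EChet, n = 7). GLOko embryos lack *Traf7* in all cells, through a floxed allele deleted by E2a-Cre, which acts in the early embryo, ECko embryos have both floxed alleles together with Tie2-Cre, and EChet embryos have 1 floxed allele with the same transgene, so both endothelial groups carry Tie2-Cre. Tie2-Cre is active in endothelium and in blood cells that arise from it, so neither the yolk sac endoderm nor the liver bud epithelium is its target. No treatment was given.

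Visceral endoderm is the outer epithelium of the yolk sac. Before the liver works, it takes up maternal proteins through the receptors cubilin and megalin, and it secretes apolipoproteins, alpha-fetoprotein, transthyretin and other carriers. The liver bud begins to make many of the same proteins, and albumin, in the embryo itself at about the stage studied here. The embryos had been taken out of their yolk sacs before RNA was prepared, so the samples are labelled as embryos and not as yolk sac. How completely the yolk sac came off each embryo is not stated.

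The promoters of 4 members are shown because they sit in front of genes that behaved in opposite ways in the same embryo, as described further on. The sequences are from RefSeq on GRCm38.p6, run from 250 bases before to 50 bases after the start of the gene, and are written 5′ to 3′ on the strand of the gene. Capitals mark a match to 1 of 5 motifs searched on both strands, with no overlap between them in these 4 promoters: GTTAATNAT for HNF1, CAAAGTCCA for HNF4, TGTTTAC for FOXA factors, AGATAA for factors of the GATA family and TTGCGCAA for C/EBP. In *Afp*, *Alb* and *Fga* the capitals are an HNF1 match, and in *S100g* a FOXA match.
*Afp* (chr5:90490464-90490763, plus strand): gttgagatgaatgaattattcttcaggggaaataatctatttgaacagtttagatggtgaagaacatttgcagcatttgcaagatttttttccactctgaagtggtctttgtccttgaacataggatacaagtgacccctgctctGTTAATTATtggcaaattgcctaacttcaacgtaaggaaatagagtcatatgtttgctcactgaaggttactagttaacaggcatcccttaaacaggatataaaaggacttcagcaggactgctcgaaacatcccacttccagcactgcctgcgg
*Alb* (chr5:90460620-90460919, plus strand): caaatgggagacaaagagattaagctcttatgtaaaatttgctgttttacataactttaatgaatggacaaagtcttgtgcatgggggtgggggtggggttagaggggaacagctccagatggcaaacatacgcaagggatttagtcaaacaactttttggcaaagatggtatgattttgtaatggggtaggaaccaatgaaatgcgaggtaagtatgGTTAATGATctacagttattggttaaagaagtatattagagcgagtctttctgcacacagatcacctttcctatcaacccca
*Fga* (chr3:83025903-83026202, plus strand): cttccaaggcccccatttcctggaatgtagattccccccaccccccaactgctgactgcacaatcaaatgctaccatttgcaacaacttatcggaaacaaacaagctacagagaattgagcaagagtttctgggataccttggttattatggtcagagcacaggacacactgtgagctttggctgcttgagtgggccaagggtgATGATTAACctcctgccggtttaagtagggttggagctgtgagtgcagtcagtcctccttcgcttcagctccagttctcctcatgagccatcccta
*S100g* (chrX:162964550-162964849, minus strand): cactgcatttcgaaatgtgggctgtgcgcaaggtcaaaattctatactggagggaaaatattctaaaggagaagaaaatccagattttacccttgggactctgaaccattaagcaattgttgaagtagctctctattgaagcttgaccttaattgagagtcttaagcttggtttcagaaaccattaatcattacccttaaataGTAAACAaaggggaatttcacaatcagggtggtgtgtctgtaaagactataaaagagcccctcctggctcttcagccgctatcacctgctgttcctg
Promoters were found for 28 of the 32 members, and 27025 genes are in the table. Counting a gene when any of its promoters had a match, the HNF1 letters were in 3 of 28 members (10.7%), against 254 of all 27025 genes (0.94%), and all 3 of these members are secreted. FOXA letters were in 5 of 28 (17.9%, *Apoa2*, *Rbp4*, *Fetub*, *S100g* and *Foxa1*), against 4.05% of all genes, and GATA letters in 5 of 28 (17.9%), against 12.7%. No member had the HNF4 or C/EBP letters, which were in 0.555% and 0.207% of all genes. A match is only a match of letters, and no test was made.

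All levels are FPKM as deposited, which are read fragments scaled to gene length and to library size. Reads in genes, recovered from the FPKM, were 16913832 to 19491098 in GLOko, 16662293 to 23877092 in WT, 18424569 to 25364652 in ECko and 17937321 to 24765617 in EChet embryos. *Traf7* was 1.75 to 3.12 FPKM in GLOko embryos, against 18.9 to 20.6 FPKM in 5 WT embryos and 11.1 FPKM in the embryo labelled WT 4, and its log2 fold change was -2.85 (limma, adjusted p = 3.98e-06). It was 13.6 to 20.4 FPKM in ECko embryos, against 18.8 to 22.7 FPKM in EChet embryos (log2 fold change -0.24, limma, adjusted p = 0.203), so *Traf7* does not check the labels of these 2 groups, and the level in the embryo labelled WT 4 goes against its label in part. GLOko 1, GLOko 2 and GLOko 6 stand apart from the other 9 embryos of their table, with 16852 to 18721 genes detected against 19263 to 19989, and results that rest on them are also given without them. The labels name no litter or sequencing batch.

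In GLOko embryos the 32 genes did not move as a block. *Lrp2* and *Mttp* were higher than in WT embryos. Most secreted members were highest in 1 embryo, GLOko 5, and many were raised to a lesser degree in GLOko 4. Some of the other embryos had low or undetected levels of many of them, while GLOko 3 was near the WT mean over the 29 members tested (mean log2 difference -0.05). Albumin and some other liver products did not exceed the WT values in either GLOko 5 or GLOko 4. By limma on log2(FPKM + 0.1), with p adjusted over all 17573 genes tested by the Benjamini-Hochberg method, 2 of 29 members tested rose and none fell at an adjusted p of 0.05 or less. Over all genes, 5.42% rose and 5.01% fell (10.4% in either direction), so that the share of members called, 6.90%, is no larger than the background. At an unadjusted p of 0.05 or less there were 9 members, 5 of them with positive and 4 with negative fold changes, beside 14.1% and 14.2% of all genes, or 28.3% in either direction. limma-voom on the recovered reads also called 2 (11.5% of all genes). Without GLOko 2 the number was 5 (4 higher and 1 lower, with 14.2% of all genes called), and without WT 3, the embryo labelled WT 4, or WT 5 it was 1 (6.37%, 4.79% and 4.65% of all genes). *Apoc2*, *Ahsg* and *Fetub* had a mean below 0.1 FPKM and were not tested. Of the 29, 5 had a WT mean below 0.1 FPKM (*Apoa4*, *Cubn*, *F2*, *Fga* and *Kng1*) and passed this filter only through GLOko embryos, and *Serpina6* passed only through WT embryos. The median log2 fold change of the 29 was 0.30, against 0.01 over all genes, and it turned to -0.05 with 0.01 in place of 0.1 added and to -0.06 with limma-voom. Single embryos moved it further, to -0.43 without GLOko 5 and -0.18 without GLOko 4, and to 0.74 without GLOko 1 and 0.81 without GLOko 2. Without GLOko 1, GLOko 2 and GLOko 6 together it was 1.51. In whole embryos, fewer cells of a type and less RNA per cell cannot be told apart.

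**Figure D1:**
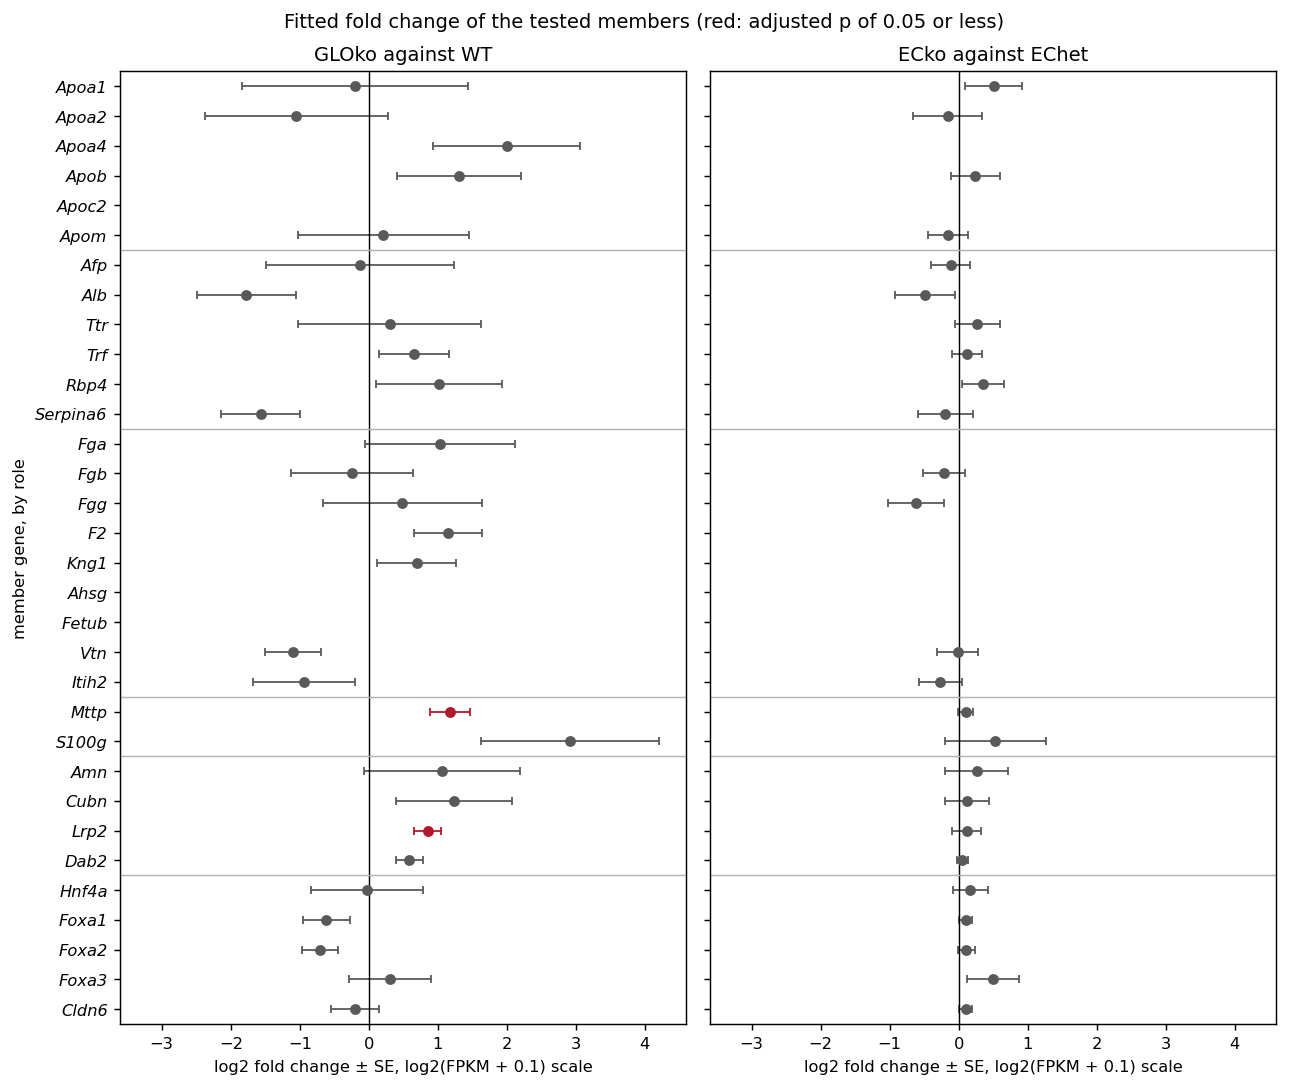
Log2 fold change (dot) and standard error (bar) of each member tested, with GLOko against WT on the left and ECko against EChet on the right. *Lrp2* and *Mttp*, in red, have an adjusted p of 0.05 or less, and secreted members have the longest bars in the left panel.

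*Lrp2* (mm10, chr2:69424340-69586065, minus strand), the gene of megalin, a large receptor for lipoproteins, vitamin carriers and other ligands on absorptive epithelia, had 1.52, 1.81, 1.505, 1.59, 2.89 and 1.54 FPKM in GLOko 1 to 6, against 0.807, 1.16, 0.852, 1.08, 0.741 and 1.11 FPKM in WT 1 to 6. Every GLOko embryo was above every WT embryo, and *Lrp2* was the only member without overlap, 1 of 29 tested, beside 8.71% of all genes tested (3.9% higher in GLOko). The group means were 1.81 ± 0.540 FPKM in GLOko and 0.957 ± 0.178 FPKM in WT embryos (SD, n = 6 each), and the log2 fold change was 0.85 (standard error 0.19, limma, adjusted p = 0.0188). Without GLOko 1, GLOko 2 and GLOko 6, *Lrp2* and *Mttp* were still called. That fit was chosen after seeing the data and keeps GLOko 5, the highest embryo in both genes, so these calls are a description. Without the embryo labelled WT 4 the log2 fold change of *Lrp2* was 0.88 (limma, adjusted p = 0.0372). Megalin is also made by neural epithelium and kidney tubules. The summed FPKM of 5 neural tube markers was 68.2 to 134 in GLOko, against 141 to 186 in WT embryos, and 3 of them fell. Those were *Nes* (log2 fold change -0.70, limma adjusted p = 0.00348), *Sox3* (-1.01, 0.0122) and *Sox1* (-0.65, 0.0495), while none of 5 markers of kidney tubule precursors was called (sums 9.25 to 13.4 FPKM in GLOko and 8.56 to 11.8 FPKM in WT). The part of these tissues in the *Lrp2* result was not tested.

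*Mttp* (mm10, chr3:138089854-138144968, minus strand), the transfer protein that loads lipid onto apolipoprotein B, had 3.93, 5.39, 2.14, 3.13, 7.25 and 1.86 FPKM in GLOko 1 to 6, against 1.68, 1.95, 1.41, 1.10, 1.72 and 1.47 FPKM in WT 1 to 6. GLOko 6 lay within the WT values, and the other 5 GLOko embryos lay above all of them. The means were 3.95 ± 2.06 FPKM in GLOko and 1.56 ± 0.295 FPKM in WT embryos (SD, n = 6 each), with a log2 fold change of 1.18 (standard error 0.30, limma, adjusted p = 0.0270). The call was lost without WT 3, without the embryo labelled WT 4, without WT 5 or without WT 6, at adjusted p values of 0.0521 to 0.0626. *Mttp* was high in GLOko 1 and GLOko 2, in which *Apob*, its lipid-carrying partner, was 0.151 and 0.0341 FPKM, no higher than in WT embryos. Both genes were highest in GLOko 5. *Mttp* overlaps *Trmt10a* on the other strand, as *S100g* does *Ctps2* and *Hnf4a* does *Hnf4aos*, and the sources do not say that strand was used in counting, so reads of such pairs may be shared. *Dab2*, an adaptor for endocytosis of megalin and its ligands, was 8.36 to 22.8 FPKM in GLOko embryos (median 10.5), against 7.18 to 8.65 FPKM in WT embryos (median 7.59), and did not pass (log2 fold change 0.59, limma, adjusted p = 0.0731). Without GLOko 5, its highest embryo, *Dab2* did pass (0.39, limma, adjusted p = 0.0469).

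**Figure D2:**
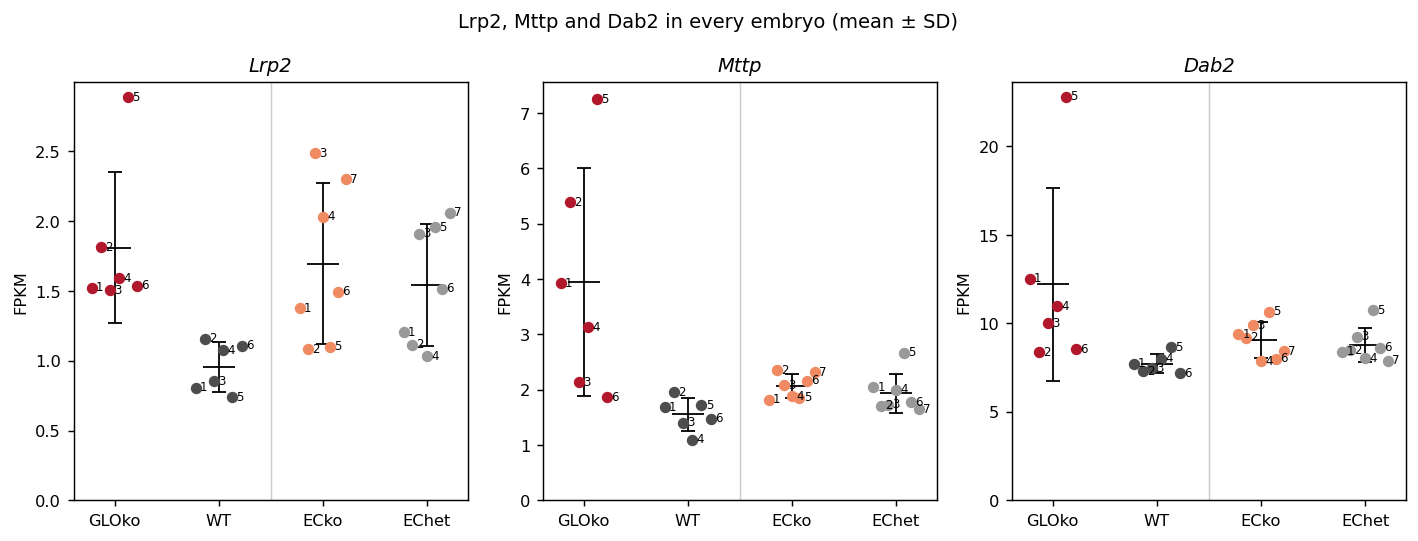
FPKM of *Lrp2*, *Mttp* and *Dab2* in each numbered embryo of the 4 groups, on linear axes from 0, with the mean (long dash) and SD (bar). *Lrp2* is 1.505 to 2.89 FPKM in GLOko embryos, above all WT embryos, while ECko and EChet embryos overlap in all 3 genes.

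The secreted proteins were set apart by 2 embryos. Summed over the 21 genes, they amounted to 628 FPKM in GLOko 5 and 166 FPKM in GLOko 4, and to 8.87, 19.1, 23.4 and 13.3 FPKM in GLOko 1, 2, 3 and 6, against 13.9 to 60.0 FPKM in WT embryos. GLOko 5 was the highest of the 12 embryos in 22 of 32 members, 14 of them secreted, and GLOko 4 came second in 19. In 17 members these 2 embryos took the first and second place. In 18 members GLOko 5 was at least 4 times the highest WT embryo, and in GLOko 4 this held for 11. The embryos are named here because of these values, so their levels are a description. Neither one is among the 3 embryos with few detected genes.

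**Figure D3:**
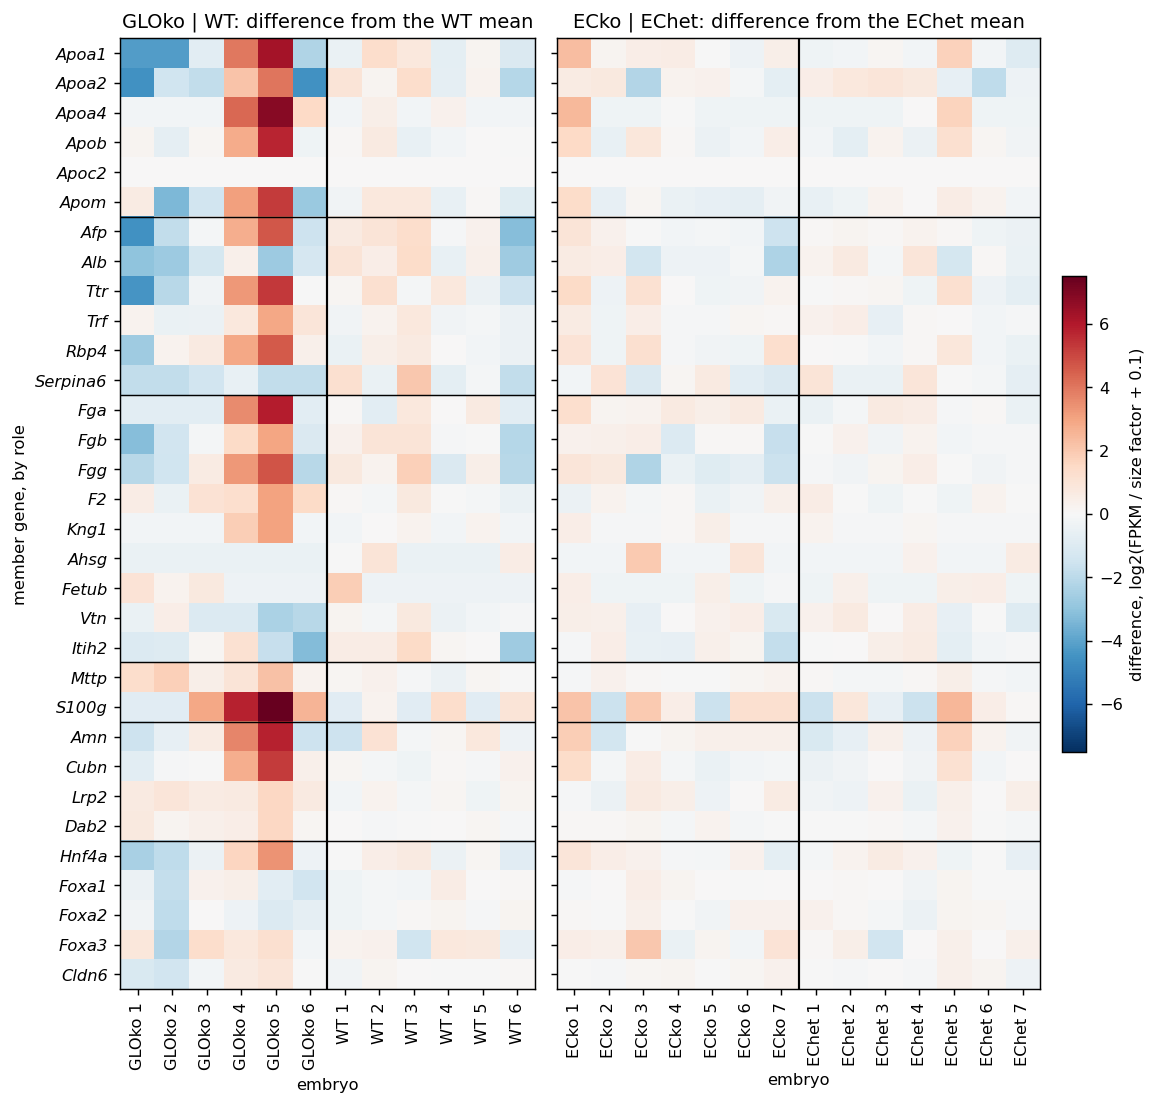
Difference of each member (rows, by role) in each embryo (columns) from the mean of the control group of its table, on the log2(FPKM + 0.1) scale, with red above and blue below the mean. GLOko 5 and GLOko 4 are red in most secreted members, and *Alb*, *Serpina6*, *Vtn* and *Itih2* are not red in GLOko 5.

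Among the apolipoproteins, which carry lipid in the blood, *Apoa1*, the main protein of high-density lipoprotein, was 136 FPKM in GLOko 5, 28.8 in GLOko 4, 0.946 in GLOko 3, 0.290 in GLOko 6 and listed at 0 in GLOko 1 and GLOko 2. WT embryos had 0.769 to 4.41 FPKM (median 1.61). GLOko embryos thus lay on both sides of the WT range, with GLOko 5 at 30.8 times the highest WT embryo and only GLOko 3 inside the range, and the fitted log2 fold change was -0.20 (standard error 1.63). *Apoa2*, a second protein of that particle, was 37.0 FPKM in GLOko 5 and 10.1 in GLOko 4, 0 to 0.688 in the other 4 GLOko embryos, and 0.442 to 5.71 FPKM in WT embryos (median 2.70). *Apom*, which carries sphingosine-1-phosphate, was 40.1 FPKM in GLOko 5 and 8.74 in GLOko 4, 0 to 1.505 in the other 4, and 0.469 to 1.78 FPKM in WT (median 0.928).

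*Apob*, the scaffold of large lipoproteins, and *Apoa4*, an apolipoprotein of intestine and yolk sac, were near 0 in all but these embryos. *Apob* was 11.03 FPKM in GLOko 5 and 1.39 in GLOko 4, 0.0341 to 0.151 in the other 4, and 0.0452 to 0.246 FPKM in WT embryos (median 0.117). *Apoa4* was 12.9 FPKM in GLOko 5 (462 reads), 2.20 in GLOko 4 (77 reads) and 0.226 in GLOko 6 (8 reads), and it was listed at 0 in the other 3, against 0 to 0.0601 FPKM in WT embryos (at most 2 reads). Both genes stood apart by the same 2 embryos as *Apoa1*, from which *Apoa4* lies only 10.2 kb away on chromosome 9. *Apoc2*, the activator of lipoprotein lipase, was listed at 0 in all 26 embryos, and so was *Gm44805*, a gene model that overlaps it on the same strand.

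Among the carriers, *Afp*, alpha-fetoprotein, was the most abundant member in GLOko 5, at 168 FPKM, with 45.3 in GLOko 4, 5.90 in GLOko 3, 2.23 in GLOko 6, 1.69 in GLOko 2 and 0.187 in GLOko 1, against 0.652 to 16.5 FPKM in WT embryos (median 9.59). The median of the GLOko embryos, 4.07 FPKM, was below that of WT, so the fold change of -0.12 (standard error 1.36) says little about any single embryo. *Ttr*, transthyretin, which carries thyroxine and retinol-binding protein, was 84.6 and 20.3 FPKM in GLOko 5 and 4, 0 to 2.01 in the other 4, and 0.633 to 4.83 FPKM in WT (median 2.06). Its partner *Rbp4*, retinol-binding protein, was 103 and 31.7 FPKM in GLOko 5 and 4, 0.567 in GLOko 1, 4.76 to 6.53 in the other 3, and 2.93 to 6.60 FPKM in WT (median 3.93). The log2 fold change of *Rbp4* was 1.02 (standard error 0.92), and it passed only without GLOko 1, GLOko 2 and GLOko 6 (2.73, limma, adjusted p = 0.04996). That fit was chosen after seeing the data and keeps GLOko 4 and GLOko 5, named because of such values, so the pass is a description. *Trf*, transferrin, the iron carrier, had 2.15 FPKM in GLOko 5, 0.111 to 0.462 in the other 5 GLOko embryos and 0.125 to 0.430 FPKM in WT embryos (median 0.165). *Gm20425*, a gene model on the same strand that overlaps *Trf*, was listed at 0 in all 26 embryos, and whether reads of the shared part were counted was not tested.

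Of the clotting proteins, the 3 fibrinogen chains lie side by side on chromosome 3, with gaps of 11.03 and 6.51 kb. *Fga* was 10.4 FPKM in GLOko 5, 1.94 in GLOko 4 and listed at 0 in the other 4 GLOko embryos, against 0 to 0.209 FPKM in WT (median 0.0868). *Fgb* was 7.13 and 2.46 FPKM in GLOko 5 and 4, 0 to 0.736 in the other 4, and 0.109 to 1.75 FPKM in WT (median 0.938). *Fgg* was 11.2 and 4.03 FPKM in GLOko 5 and 4, 0 to 0.558 in the other 4, and 0 to 1.38 FPKM in WT (median 0.449). All 3 chains were thus at a similar level in GLOko 5, and in WT embryos *Fga* was the lowest of them. *F2*, prothrombin, was 1.04 FPKM in GLOko 5, 0 to 0.278 in the other 5 GLOko embryos and 0 to 0.128 FPKM in WT (median 0.0311). *Kng1*, kininogen, was 0.842 and 0.319 FPKM in GLOko 5 and 4 (54 and 20 reads), 0 in the other 4, and 0 to 0.0387 FPKM in WT (at most 3 reads). *F2*, with a WT mean of 0.0439 FPKM and a GLOko mean of 0.308 FPKM, did not pass (log2 fold change 1.15, limma, adjusted p = 0.143), and without GLOko 5 it was below the filter and not tested. *Ahsg* and *Fetub*, liver-secreted fetuins, were listed at 0 in GLOko 4, 5 and 6, and reached at most 7 and 16 reads in any embryo of this table.

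Some secreted members were not high in GLOko 5. In GLOko 4, *Alb*, *Serpina6* and *Itih2* were the highest of the GLOko embryos but within the WT values. *Alb*, albumin, was 0.0216 FPKM in GLOko 5 (1 read), 0.972 in GLOko 4, 0.225 in GLOko 3, 0.240 in GLOko 6, 0.0225 in GLOko 2 and 0 in GLOko 1, against 0.0254 to 2.06 FPKM in WT embryos (median 1.03). WT 1 to 5, at 0.447 FPKM or more, were above every GLOko embryo but GLOko 4, while the log2 fold change of -1.77 did not pass (standard error 0.72, limma, adjusted p = 0.124). *Alb* lies 14.1 kb before *Afp* on the same strand of chromosome 5, and their promoters, printed above, both hold the HNF1 letters. In GLOko 5 the neighbors were at 168 FPKM for *Afp* and 0.0216 for *Alb*. In WT 6, by contrast, both were at their lowest WT values, 0.652 and 0.0254 FPKM.

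*Serpina6*, the corticosteroid carrier, was listed at 0 in GLOko 1, 2, 5 and 6, at 0.0332 in GLOko 3 and 0.147 in GLOko 4, against 0 to 1.38 FPKM in WT embryos (median 0.195). *Vtn*, vitronectin, an adhesive plasma protein, was 5.23, 10.4, 3.63, 3.65, 1.37 and 1.69 FPKM in GLOko 1 to 6, against 5.53 to 12.6 FPKM in WT embryos (median 7.06). All GLOko embryos but GLOko 2 were below every WT embryo, and GLOko 5 was the lowest of all 12. The log2 fold change was -1.57 for *Serpina6* (standard error 0.58) and -1.10 for *Vtn* (standard error 0.40), and neither passed (limma, adjusted p = 0.0945 and 0.0949). The study itself counts *Serpina6* among the genes lowered in GLOko embryos, by another test (the Wald test of DESeq2). *Vtn* passed without GLOko 2 (-1.41, limma, adjusted p = 0.0166), and *Serpina6* (-1.94, 0.0479) and *Alb* (-2.31, 0.0416) passed without WT 6. *Alb* also passed without GLOko 4 (-2.21, limma, adjusted p = 0.0467). Without GLOko 1, GLOko 2 and GLOko 6, neither *Alb* (-1.22, limma, adjusted p = 0.416) nor *Serpina6* (-1.29, limma, adjusted p = 0.292) passed. *Itih2*, a heavy chain that binds hyaluronan, was 0.398 FPKM in GLOko 5, 3.56 in GLOko 4 and 0.0772 to 1.76 in the other 4, against 0.161 to 4.36 FPKM in WT (median 2.03). *Alb*, *Serpina6*, *Vtn* and *Itih2* were all highest in WT 3.

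**Figure D4:**
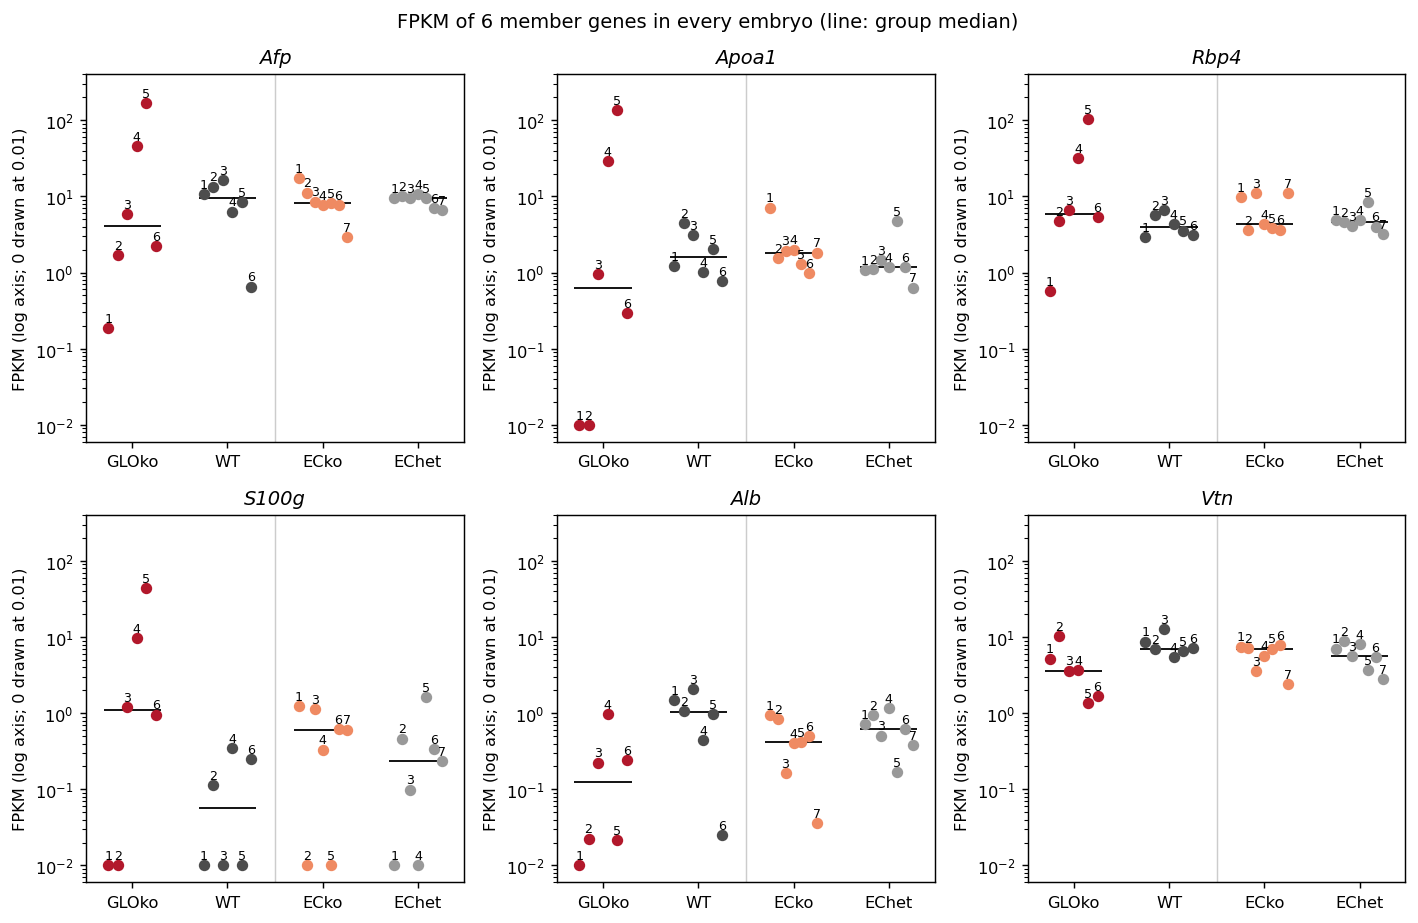
FPKM of *Afp*, *Apoa1*, *Rbp4*, *S100g*, *Alb* and *Vtn* in each numbered embryo of the 4 groups on a log axis, with 0 drawn at 0.01 and a line at the group median. GLOko 5 is the top point for the first 4 genes and lies near the bottom for *Alb* (0.0216 FPKM) and *Vtn* (1.37 FPKM).

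Of the genes of uptake and of calcium binding, *S100g*, *Amn* and *Cubn* were highest in GLOko 5 and second highest in GLOko 4, whereas the second place was held by GLOko 2 in *Lrp2* and by GLOko 1 in *Dab2*. *S100g*, calbindin-D9k, a small calcium-binding protein of absorptive epithelia, was 43.7 FPKM in GLOko 5, 9.81 in GLOko 4, 1.22 in GLOko 3, 0.959 in GLOko 6 and 0 in GLOko 1 and GLOko 2, against 0 to 0.349 FPKM in WT embryos (median 0.0568, at most 4 reads). GLOko 3, 4, 5 and 6 were above every WT embryo, and the log2 fold change was 2.91 (standard error 1.29, limma, adjusted p = 0.158). Without GLOko 1, GLOko 2 and GLOko 6, *S100g* passed (5.55, limma, adjusted p = 0.0107). That fit was chosen after seeing the data and keeps only GLOko 3, GLOko 4 and GLOko 5 of the group. GLOko 4 and GLOko 5 were named because of such values, so this pass is a description. *Amn*, amnionless, which brings cubilin to the cell surface, was 15.8 and 3.62 FPKM in GLOko 5 and 4, 0 to 0.349 in the other 4, and 0 to 0.532 FPKM in WT (median 0.193). *Cubn*, cubilin, a receptor for intrinsic factor and for albumin, was 6.75 and 1.11 FPKM in GLOko 5 and 4, 0.00352 to 0.140 in the other 4, and 0.0450 to 0.131 FPKM in WT (median 0.0847). *Amn* and *Cubn*, whose proteins form 1 receptor, were therefore high in the same embryos, whereas their partner *Lrp2* was 1.59 FPKM in GLOko 4, near its level in GLOko 1, 3 and 6.

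Of the 5 gut and liver factors, *Hnf4a* and *Cldn6* were highest in GLOko 5 and second highest in GLOko 4, and the 3 forkhead factors were not. *Hnf4a*, a nuclear receptor needed for visceral endoderm and liver, had 5.42 FPKM in GLOko 5, 1.55 in GLOko 4, 0 to 0.318 in the other 4, and 0.197 to 0.774 FPKM in WT embryos (median 0.461). *Cldn6*, a claudin of embryonic epithelia, was 76.2 FPKM in GLOko 5, 64.4 in GLOko 4 and 14.1 to 39.5 in the other 4, against 32.8 to 46.2 FPKM in WT embryos (median 40.4). *Foxa2*, a forkhead factor of endoderm, notochord and floor plate, was 1.25 to 5.20 FPKM in GLOko embryos (median 3.55) with 2.48 in GLOko 5, against 4.08 to 6.04 FPKM in WT (median 5.28). Its log2 fold change of -0.71 did not pass (standard error 0.27, limma, adjusted p = 0.101). Of 5 notochord and floor plate markers, 1, *Noto*, fell (log2 fold change -2.06, limma, adjusted p = 0.0205), and their sum was 5.18 to 16.9 FPKM in GLOko and 13.9 to 20.3 FPKM in WT embryos, whose part in the *Foxa2* values was not tested. *Foxa1* was 0.857 to 4.40 FPKM in GLOko and 2.65 to 4.90 FPKM in WT embryos, and *Foxa3* was 0 to 1.03 FPKM in GLOko and 0.0618 to 0.699 FPKM in WT embryos. None of these 5 genes was called.

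At the low end, GLOko 1 listed 15 of 32 members at 0, GLOko 2 listed 11 and GLOko 6 listed 9, against 3 to 5 in GLOko 3, 4 and 5 and 3 to 8 in WT embryos. The mean log2 difference from the WT mean over the 29 members was -1.22 in GLOko 1, -1.08 in GLOko 2, -0.69 in GLOko 6, -0.05 in GLOko 3, 1.89 in GLOko 4 and 2.91 in GLOko 5, and WT embryos ran from -0.79 (WT 6) to 0.43 (WT 3). Within WT, WT 6 had the lowest value in 14 members, mostly secreted ones. GLOko 2 was the lowest embryo of the table in *Foxa1*, *Foxa2*, *Foxa3* and *Cldn6*, and GLOko 1 in *Afp*, *Ttr* and *Rbp4*. Without GLOko 1, GLOko 2 and GLOko 6, 6 members rose (*Lrp2*, *Mttp*, *Dab2*, *Rbp4*, *S100g* and *F2*) and 1 fell (*Vtn*), 7 of 29, beside 11.2% of all genes in that fit. *F2* is among those that passed the filter only through GLOko embryos. The fit was chosen after seeing the data and keeps GLOko 4 and GLOko 5, named because of their values, so its calls are a description.

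Genes outside the list were read for comparison. Of 9 other yolk sac endoderm genes, 32 other plasma proteins, 14 hepatoblast factors and 15 gut endoderm genes, none was called by limma in either comparison. In GLOko against WT, the number at an unadjusted p of 0.05 or less was 0 of 9 tested, 3 of 19, 0 of 11 and 2 of 14, and the median log2 fold changes were 0.64, 0.12, 0.00 and 0.27, against 0.01 over all genes. In ECko against EChet the numbers were 1 of 8 tested, 1 of 16, 1 of 11 and 0 of 15. The summed FPKM of the 9 yolk sac genes was 61.8 in GLOko 5 and 19.0 in GLOko 4, and 2.43 to 7.08 in the other 4 GLOko embryos, against 3.86 to 7.06 FPKM in WT embryos. Among them, named after their values were seen, *Slc2a2*, a glucose transporter of yolk sac, liver and gut, was 6.62 and 1.01 FPKM in GLOko 5 and 4, against at most 0.123 FPKM in WT embryos. The hepatoblast factors summed to 131 and 135 FPKM in GLOko 5 and 4, within the WT range of 89.1 to 161 FPKM. The gut endoderm genes summed to 499 and 414 FPKM in GLOko 5 and 4 and to 162 to 368 FPKM in the other 4, against 200.1 to 281 FPKM in WT embryos. The other plasma proteins summed to 136 and 55.7 FPKM in GLOko 5 and 4 and to 19.5 to 118 FPKM in the other 4, with GLOko 2 the highest of these, against 22.5 to 57.2 FPKM in WT embryos. The sums of yolk sac and gut endoderm genes thus both stood highest in GLOko 5 and GLOko 4. They are not separate readings, since *Spink1*, at 16.7 and 3.43 FPKM in GLOko 5 and 4, is in both lists. The gut list also holds *Epcam*, *Cdh1*, *Krt8* and *Krt18*, and whole-embryo values do not show from which tissue its reads came. The part of remaining yolk sac tissue in these levels was not tested.

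**Figure D5:**
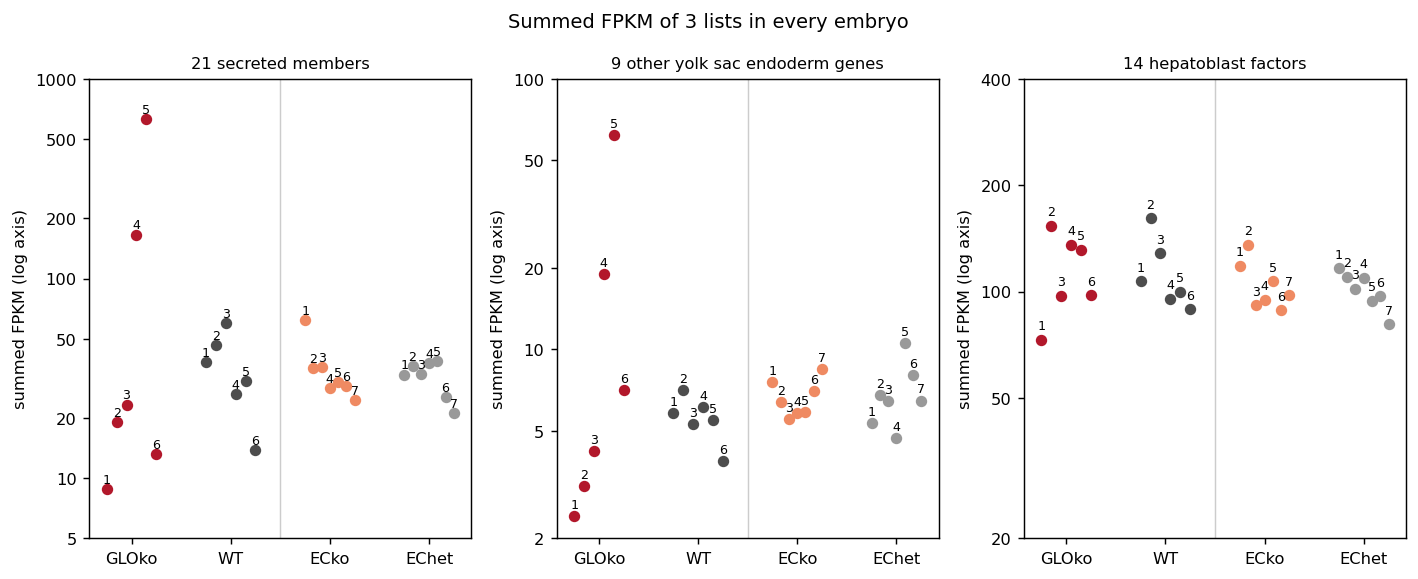
Summed FPKM of the 21 secreted members, of 9 other yolk sac endoderm genes and of 14 hepatoblast factors in each numbered embryo of the 4 groups, on log axes. GLOko 5 (628 and 61.8 FPKM) and GLOko 4 (166 and 19.0 FPKM) stand above all other embryos in the first 2 panels and among them in the third.

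Markers of other cells were read in the same embryos. Of 10 trophoblast and decidua markers, *Prl2c2*, *Tpbpa* and *Ctsq* were listed at 0 in all 12 embryos, and the sum was 7.81 and 6.62 FPKM in GLOko 5 and 4, within the range of GLOko (3.65 to 7.91) and above that of WT embryos (2.49 to 4.72). Only 3 of the 10 passed the filter on low values and were tested, and 1 of these, *Ascl2*, rose (log2 fold change 1.95, limma, adjusted p = 0.0346). Primitive red cells, which form in the yolk sac, were read by 6 genes, and their sum was 9826 and 10536 FPKM in GLOko 5 and 4, at the upper end of the GLOko range of 4348 to 10536, against 4407 to 10051 FPKM in WT embryos. Endothelial markers summed to 83.7 and 73.3 FPKM in GLOko 5 and 4, within the GLOko range of 63.8 to 124 and above the WT range of 57.1 to 69.2, and 1 of 7, *Kdr*, rose (log2 fold change 0.76, limma, adjusted p = 0.0210). Heart muscle markers summed to 1242 and 1009 FPKM in GLOko 5 and 4, to 1200.3, 981 and 687 FPKM in GLOko 6, 2 and 3 and to 17.1 FPKM in GLOko 1, against 46.7 to 668 FPKM in WT embryos, so that 5 of 6 GLOko embryos were above all WT embryos. Macrophage markers summed to 1.85 and 0.463 FPKM in GLOko 5 and 4 (GLOko range 0.455 to 3.85), against 0.856 to 2.56 FPKM in WT embryos, with no gene of either list called. The part of these tissues in the levels of the members was not tested.

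In ECko embryos no member passed the test. Of 32 members 25 had a mean of at least 0.1 FPKM and were tested, and limma called 0, with 0 at an unadjusted p of 0.05 or less (8.03% of all genes with positive and 6.42% with negative fold changes, 14.5% in all) and 0 by limma-voom. Over all 17514 genes tested, 0.0571% rose and 0.04% fell (0.0971% in either direction), so few calls of any kind were made. The fold changes of the 25 ran from -0.62 (*Fgg*, standard error 0.41, limma, adjusted p = 0.513) to 0.53 (*S100g*, standard error 0.73), and their median was 0.10, against 0.00 over all genes. A p that misses the threshold does not show that levels were equal.

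*Lrp2* was 1.08 to 2.49 FPKM in ECko embryos (median 1.49), against 1.03 to 2.06 FPKM in EChet embryos (median 1.52), with a log2 fold change of 0.12 (standard error 0.21). *Mttp* was 1.82 to 2.36 FPKM in ECko embryos (median 2.08), against 1.65 to 2.67 FPKM in EChet embryos (median 1.77), with a log2 fold change of 0.10 (standard error 0.11). The groups overlapped in both genes, and no member was free of overlap, beside 0.508% of all genes tested. *Alb* was 0.0358 to 0.943 FPKM in ECko and 0.168 to 1.17 FPKM in EChet embryos (log2 fold change -0.49, standard error 0.44). *Apoa1* was 0.984 to 7.15 FPKM in ECko and 0.633 to 4.77 FPKM in EChet embryos (log2 fold change 0.51, standard error 0.42). The 2 comparisons share no embryos, and the difference between their fold changes was not tested.

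Single embryos stood out here as well, in both groups and on a smaller scale. ECko 1 was the highest of 14 embryos in 13 members, 10 of them secreted, and EChet 5 in 4. ECko 3 was the highest in 7, 3 of them secreted. In 8 members, namely *Apoa1*, *Apoa4*, *Apob*, *Apom*, *Ttr*, *S100g*, *Amn* and *Cubn*, ECko 1 and EChet 5 took the first and second place. All 8 are among the 17 in which GLOko 5 and GLOko 4 did so, 47.1% of the 17 and 100% of the 8. Those 17 are out of 31 members with a value in that table. ECko 1 and EChet 5 are also named because of these values, so the overlap is a description and was not tested. *Apoa1*, for example, was 7.15 FPKM in ECko 1 and 0.984 to 2.00 in the other 6 ECko embryos, and 4.77 FPKM in EChet 5 and 0.633 to 1.47 in the other 6 EChet embryos. *Cubn* was 0.470 FPKM in ECko 1 and 0.0531 to 0.223 in the other 6, and 0.378 FPKM in EChet 5 and 0.0588 to 0.121 in the other 6.

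Albumin parted from these genes in EChet 5 but not in ECko 1. EChet 5 was the lowest EChet embryo in *Alb*, at 0.168 FPKM, and in *Itih2*, at 1.19 FPKM, whereas *Alb* was 0.943 FPKM in ECko 1, the highest of that group. ECko 7 was the lowest of the 14 embryos in *Afp* (2.92 FPKM), *Alb* (0.0358), *Fgb* (0.165), *Vtn* (2.44), *Itih2* (0.518) and *Hnf4a* (0.148), while its *Rbp4*, at 11.02 FPKM, was 1 of the 3 highest. The sum of the 9 other yolk sac genes was 5.52 to 8.46 FPKM in ECko and 4.70 to 10.5 FPKM in EChet embryos, with EChet 5 the highest. ECko 1 did not stand out in this sum, at 7.59 FPKM, below ECko 7 (8.46) and EChet 6 (8.06). *Ahsg* was 0.348 FPKM in ECko 3, over 4 times the 0.0764 FPKM of the highest EChet embryo, and it was listed at 0 in 5 of the other 6 ECko embryos.

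Set side by side across the 4 groups, whose tables were made separately, the mean levels per gene length had *Cldn6* and *Afp* as the first and second gene in every group. *Cldn6* had the highest mean in all 4, at 41.1 ± 24.9 FPKM in GLOko and 40.4 ± 4.47 FPKM in WT (SD, n = 6 each), and 35.5 ± 3.79 FPKM in ECko and 33.4 ± 5.61 FPKM in EChet (SD, n = 7 each). *Afp* followed, with 37.3 ± 66.5 FPKM in GLOko, 9.36 ± 5.59 FPKM in WT, 9.10 ± 4.47 FPKM in ECko and 9.003 ± 1.53 FPKM in EChet embryos. In WT embryos *Vtn* (7.93 ± 2.53 FPKM) and *Dab2* (7.72 ± 0.541 FPKM) came next, and they differed from *Afp* by less than the SD of *Afp* and from each other by less than either SD. In GLOko embryos *Apoa1* (27.7 ± 54.3 FPKM), *Rbp4* (25.3 ± 39.6 FPKM) and *Ttr* (18.2 ± 33.5 FPKM) came next instead, with SDs larger than the means. *Dab2*, at means of 9.06 FPKM in ECko and 8.78 FPKM in EChet embryos, was below *Afp* by less than the SD of *Afp*. By median, *Afp* was below *Dab2* in GLOko (4.07 against 10.5 FPKM) and in ECko embryos (8.16 against 9.20 FPKM), and above it in WT and EChet embryos. *Lrp2* was 1.70 ± 0.575 FPKM in ECko and 1.54 ± 0.435 FPKM in EChet embryos, both near the GLOko mean of 1.81 FPKM and above the WT mean of 0.957 FPKM, but no test was made across the tables.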

How the data were processed

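The authors deposited FPKM of whole mouse embryos at E9.5 in 2 tables. Reads had been aligned with STAR to mm10 per the labels. The study's software list also names HISAT2 and featureCounts, and which of these programs made the tables is not stated. Multiplied by gene length, the FPKM of a library came in whole steps (tolerance 0.01), from which the reads in genes were counted.

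After scaling by median-of-ratios size factors and adding 0.1 to FPKM, log2 values of genes with a mean of at least 0.1 FPKM were compared with limma 3.58.1 in R 4.3.3 (trend and robust, two-sided, Benjamini-Hochberg, called at 0.05 or less), each table separately. The fits were also run on simulated log-normal values, drawn independently for each gene and embryo. That setting holds no embryo that shifts many genes together, so it does not check the calls of these members. Overlaps and places are from the gene positions deposited with the FPKM, taken to be on mm10 as the labels name it. Python 3.11.15 with pandas 2.3.3 gave the descriptions.

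The 32 genes, the other lists and the tests were chosen with earlier results of these data known. All 32 are named. In other lists, up to 3 called genes of smallest p are named. Alternatives changed the added value, filter, scaling, weights, test and embryos. The fit without GLOko 1, GLOko 2 and GLOko 6 was added after seeing the data. Nothing says which embryos share a litter, so p values measure the spread between these embryos.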

Additional observations from a re-analysis of the deposited data

Results flagged for a closer look

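A value is given here where the gap between the highest or lowest embryo of a group and its nearest neighbor was above Dixon's 95% critical share of the range. Chance flags about 1 in 20 groups of values only where the values are normally distributed. The FPKM used here are skewed, and some genes had no reads in several embryos of a group. *Fetub*, for example, had no reads in 5 WT embryos. That rate therefore need not hold here, and the number of values found cannot be set against it. Of 123 member and group combinations with a range, 40 were found, 21 of them in GLOko, 2 in WT, 7 in ECko and 10 in EChet. Values of genes in 1 embryo are not independent of each other.

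GLOko 5 lay far above the other GLOko embryos in 19 members. Among the apolipoproteins these were *Apoa1* (136 FPKM), *Apoa2* (37.0), *Apoa4* (12.9), *Apob* (11.03) and *Apom* (40.1). Among the carriers they were *Afp* (168), *Ttr* (84.6), *Trf* (2.15) and *Rbp4* (103), and among the clotting proteins *Fga* (10.4), *Fgb* (7.13), *Fgg* (11.2) and *F2* (1.04). The others were *S100g* (43.7), *Amn* (15.8), *Cubn* (6.75), *Lrp2* (2.89), *Dab2* (22.8) and *Hnf4a* (5.42). GLOko 4 lay far above the rest in *Alb* (0.972 FPKM) and *Serpina6* (0.147), in both of which it was still within the WT values. In WT embryos, WT 1 stood apart in *Fetub* (0.369 FPKM) and the embryo labelled WT 4 in *Foxa1* (4.90).

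ECko 1 lay far above the other ECko embryos in *Apoa1* (7.15 FPKM), *Apoa4* (0.581), *Apom* (2.92), *Amn* (1.25) and *Cubn* (0.470), and ECko 3 in *Ahsg* (0.348) and *Foxa3* (1.26). EChet 5 lay far above the other EChet embryos in 9 members, namely *Apoa1* (4.77 FPKM), *Apoa4* (0.298), *Apob* (0.641), *Ttr* (5.96), *Rbp4* (8.41), *Mttp* (2.67), *S100g* (1.64), *Amn* (1.15) and *Cubn* (0.378). EChet 3 was far below the others in *Foxa3* (0.0234 FPKM).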

How the results depend on the processing

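In GLOko against WT, 2 members were called with 0.01 or 1 added, without a filter, with a mean of at least 1 FPKM, with either other scaling, without robust moderation and with limma-voom. With 1 weight per embryo 8 were called (7 higher, 1 lower, with 15.9% of all genes called), and without GLOko 1, GLOko 2 and GLOko 6, chosen after seeing the data, 7 (6 higher, 1 lower, with 11.2% of all genes called). Leaving out 1 embryo gave 1 to 5. With the replicate block 1 was called (5.75% of all genes), since *Lrp2* had an adjusted p of 0.0574 in limma. Embryos of the same number showed no sign of deviating together (correlations of -0.05 to 0.09, and of -0.08 to 0.11 in the other table). With so few embryos, this check cannot show that the numbers pair none of them. In ECko against EChet, 0 were called under every alternative, the replicate block included.

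Of the 29 members tested in GLOko against WT, 20 kept the sign of their fold change under all alternatives, and 9 that were not called did not (*Afp*, *Apoa1*, *Apoa2*, *Apom*, *Cldn6*, *Fgb*, *Fgg*, *Hnf4a* and *Ttr*). *Afp* reversed with 1 added (0.14), with 1 weight per embryo (1.67) and without GLOko 1, GLOko 2 and GLOko 6 (2.41), and ran from -1.08 to 0.76 with 1 embryo left out. *Apoa1* reversed with 1 added (0.72), with weights (2.27) and without the 3 embryos (3.14), and ran from -1.48 to 0.60. The cause was not tested. In ECko against EChet 19 of 25 kept their sign. At these depths a gene at 0 or a few reads cannot be ordered between embryos.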
